A study of Sus scrofa with 6 samples.

Results

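The HOXB and HOXC genes described here are 10 homeobox genes, HOXB2, HOXB3, HOXB4, HOXB6, HOXB7, HOXB8, HOXC5, HOXC6, HOXC8 and HOXC9. They were chosen by name, and each was matched by its pig Ensembl identifier among the 22844 rows of every library, 34 of which carry the symbol of a HOX gene. The fat came from pigs bred from Duroc, Landrace and Yorkshire stock. In the resveratrol group (3 libraries) the diet contained resveratrol, a plant polyphenol, at 400 mg/kg, and the control group (3 libraries) received the control diet. Each library is total RNA of bulk subcutaneous fat. The labels give neither the body site of the fat nor the age of the pigs. They also do not state that the libraries of a diet came from separate pigs, and each p-value therefore rests on library-to-library spread that may be technical. In bulk tissue, fewer cells of a type and less RNA per cell cannot be told apart.

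HOX genes encode homeodomain transcription factors and lie in 4 clusters, HOXA to HOXD. Along a cluster, genes at one end are used in anterior parts of the embryo and genes at the other end, which carry higher numbers, in more posterior parts. Adult fat cells and their precursors keep part of this pattern, so that depots from different body sites differ in their HOX genes. On DNA the HOX proteins work together with cofactors of the PBX, MEIS and PKNOX families, and their active or silent state is kept by trithorax and Polycomb proteins.

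In the table of RefSeq genes, which names the assembly Sscrofa11.1, the HOXB and the HOXC cluster lie on separate chromosomes, and 9 of the 10 genes are listed. HOXB6, HOXB7 and HOXB8 follow each other without a gene between them, and HOXC6 is the neighbour of HOXC5. The listed genes HOXB3, HOXB6, HOXC6, HOXC8 and HOXC9 each overlap an unnamed lncRNA locus. Since the authors' handling of strand is not given, reads of such a pair cannot be told apart, and reads from the homeobox that paralogues share may have been split between genes.

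Library depth ran from 34436239 to 37943877 reads in the resveratrol group and from 16251536 to 34048559 reads in the control group, with control 2 the shallowest. The sum of the 6 fat cell markers was high in every library, at 20911 to 26535 TPM in resveratrol and 17062 to 23964 TPM in control. FABP4 gave most of it, at 14487 to 19979 TPM in resveratrol and 11828 to 17852 TPM in control. LEP, the gene of leptin, was at 8.57 to 29.3 TPM over the 6 libraries. Of the 6 markers, 5 had a log2 fold change above 0 and LEP had one of -0.67. In edgeR 0 had an unadjusted p under 0.05, where 6.53% of all tested genes had. ADIPOQ, the gene of the fat cell hormone adiponectin, had 4437 to 4683 TPM (a transcript level scaled for length and library size) in resveratrol and 3614 to 4042 TPM in control. The 3 skeletal muscle markers that have a row summed to at most 0.843 TPM in resveratrol and 1.40 TPM in control. The 4 skin markers with a row summed to 6.08 to 8.22 TPM in resveratrol and 6.86 to 10.2 TPM in control, nearly all of it from DSP, a desmosome gene of many epithelia, while the skin keratin KRT1 was at 0 TPM throughout. Tendon and cartilage genes were lower in resveratrol, most of all against control 1. All 9 markers were tested, and 9 of 9 had a log2 fold change below 0, where 51.2% of all tested genes had. In edgeR 4 had an unadjusted p under 0.05, lower in resveratrol, where 4.32% of all tested genes had, and 0 passed the adjusted threshold. DESeq2 called 1, the cartilage collagen gene COL2A1, which was higher in every control library (5.08 to 11.8 TPM) than in any resveratrol library (0.936 to 1.08 TPM). Without control 1, 4 of 9 still had an unadjusted p under 0.05 in edgeR, lower in resveratrol, where 4.21% of all tested genes had. The 9 markers summed to 83.9, 73.9 and 55.9 TPM in resveratrol 1, 2 and 3, against 599, 79.8 and 123.9 TPM in control 1, 2 and 3. The summed 6 markers of stromal progenitors were also highest in control 1, at 1205 to 1705 TPM in resveratrol and 1511 to 4357 TPM in control. Most of this sum in control 1 came from the collagen gene COL1A1. It measured 3536, 793 and 1871 TPM in control 1, 2 and 3 and 580 to 1008 TPM in resveratrol. Control 1 thus stood apart from the other 5 libraries in these sums, and several of the values that follow are also given without it.

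All 10 genes were expressed at low levels, and none differed between the diets at the threshold of an adjusted p under 0.05. edgeR's quasi-likelihood test called 0 of the 10 (smallest adjusted p = 0.733), where 0.0% of the 14908 tested genes were called. DESeq2 also called 0 of the 10, where it called 0.268% of all tested genes. At an unadjusted p under 0.05, edgeR gave 1 of the 10, HOXC6, lower in resveratrol, where 4.32% of all tested genes were lower and 6.53% differed in either direction at that threshold. DESeq2 gave the same single gene, where 7.38% of all tested genes had an unadjusted p under 0.05. A count of 1 in 10 is close to these shares.

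The 6 HOXB genes had a median log2 fold change (resveratrol over control) of 0.06, and 1 of 6 was below 0. The 4 HOXC genes had a median of -0.21, and 3 of 4 were below 0. Over all tested genes the median was -0.0075, and 51.2% were below 0. Whether the clusters differed from each other was not tested. The HOXC median was -0.06 without control 1 and -0.35 without control 2, while the HOXB median was 0.21 without control 1 and changed sign to -0.08 without control 2 and -0.10 without control 3.

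**Figure D1:**
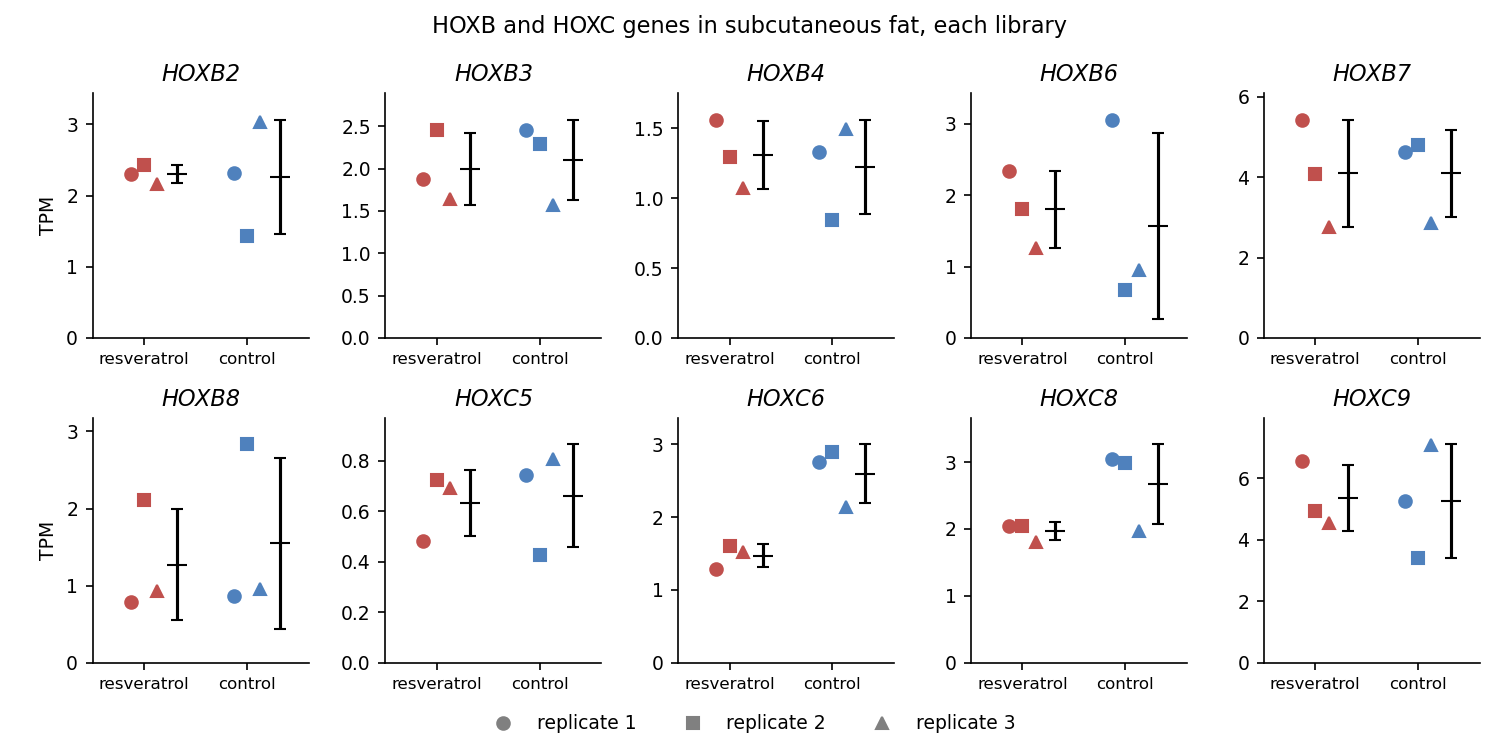
TPM (y axis, from 0, scaled per panel) of the 10 genes in the 3 resveratrol and 3 control libraries. Symbols mark the replicate number, and the black bar is the mean with the SD. HOXC6 is the one gene whose 3 resveratrol libraries all lie under its 3 control libraries.

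Anterior genes of the HOXB cluster come first. HOXB2 (ENSSSCG00000017533.2), which in the mouse helps to pattern the hindbrain, measured 2.30, 2.43 and 2.17 TPM in resveratrol 1, 2 and 3 and 2.31, 1.43 and 3.04 TPM in control 1, 2 and 3. The resveratrol values lay inside the control range, and control 2 was lowest. Its log2 fold change was 0.05 (SE 0.34, 95% interval -0.69 to 0.80). HOXB3 (ENSSSCG00000017534.2), its neighbour in the cluster, measured 1.88, 2.46 and 1.64 TPM in resveratrol and 2.46, 2.28 and 1.57 TPM in control. This gene spread least of the 10, by 1.57-fold from its lowest to its highest library, and the interval of its fold change, 0.657 to 1.52, was also the narrowest. HOXB4 (ENSSSCG00000017535.3), known for its effect on the growth of blood stem cells, measured 1.56, 1.30 and 1.08 TPM in resveratrol and 1.33, 0.846 and 1.49 TPM in control, with a log2 fold change of 0.12 (SE 0.38).

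The middle genes of the cluster included the most variable ones. HOXB7 (ENSSSCG00000017538.3), a homeobox gene often overexpressed in tumours, measured 5.43, 4.08 and 2.76 TPM in resveratrol and 4.63, 4.80 and 2.85 TPM in control. The group means were 4.09 ± 1.33 TPM in resveratrol and 4.09 ± 1.08 TPM in control (SD, n = 3 each). Replicate 3 was the lowest library of each diet.

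HOXB6 (ENSSSCG00000017539.3), next to HOXB7, measured 2.34, 1.80 and 1.26 TPM in resveratrol and 3.06, 0.674 and 0.956 TPM in control. Control 1 was the highest library and the other control libraries the lowest, a 4.53-fold range, the widest of the 10 genes. The lowest value rests on 8 reads in control 2, with an exact Poisson 95% interval of 3.45 to 15.8 reads that covers counting error only. Its log2 fold change was 0.17 (SE 0.56). Without control 1 it was 1.19, at an unadjusted p = 0.0386 and an adjusted p = 0.698 in edgeR, and without control 2 it was -0.19.

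HOXB8 (ENSSSCG00000017537.3), which keeps myeloid progenitors of the mouse dividing when overexpressed, measured 0.781, 2.11 and 0.934 TPM in resveratrol and 0.868, 2.83 and 0.953 TPM in control. One library of each diet, resveratrol 2 and control 2, stood above the other libraries, all of which were under 1 TPM. The counting intervals kept this gap: they began at 1.64 TPM in resveratrol 2 and reached 3.89 TPM in control 2, and the highest upper bound of the other 4 libraries was 1.40 TPM, in control 3. Its neighbour HOXB7 did not follow, and the ratio of HOXB7 to HOXB8 TPM was 6.95, 1.94 and 2.96 in resveratrol 1, 2 and 3 and 5.33, 1.69 and 2.99 in control 1, 2 and 3. The log2 fold change of HOXB8 was -0.11 (SE 0.53, 95% interval -1.29 to 1.07).

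HOXC6 had the largest fitted difference of the 10 genes. HOXC6 (ENSSSCG00000030585.2), a homeobox gene of the thoracic region, measured 1.29, 1.61 and 1.52 TPM in resveratrol and 2.76, 2.89 and 2.14 TPM in control, that is 1.47 ± 0.163 and 2.60 ± 0.400 TPM (SD, n = 3 each). Every resveratrol library was below every control library. Of all tested genes, 8.15% were lower without overlap in TPM, and 1 of the 10 described here was. The counts behind it were 41, 51 and 48 reads in resveratrol and 73, 37 and 58 reads in control. Its log2 fold change was -0.74 (SE 0.32, 95% interval -1.45 to -0.03), with an unadjusted p = 0.0435 and an adjusted p = 0.733 in edgeR, so it did not pass. Left-out libraries kept the sign, with values from -0.83 to -0.62, while the unadjusted p ranged from 0.0439 to 0.142. Without control 1, the library highest in tendon genes, it was -0.62 with an unadjusted p = 0.137. Control 3, the next highest in the summed tendon and cartilage markers at 123.9 TPM, remained in that fit. The part of tendon, cartilage or stromal cells in this difference was not tested.

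HOXC8 (ENSSSCG00000038644.1), which in the mouse represses the brown fat programme in fat precursors, measured 2.04, 2.05 and 1.81 TPM in resveratrol and 3.04, 2.98 and 1.98 TPM in control. In TPM the groups overlapped through control 3. After scaling counts by TMM (trimmed mean of M values) the resveratrol libraries, at 1.81, 1.80 and 1.76 CPM (counts scaled to library size), were all below the control libraries, at 2.84, 2.24 and 1.82 CPM. The gap between the highest resveratrol and the lowest control library was small. On this scale 6.97% of all tested genes were lower without overlap, and 2 of the 10 described here were, HOXC6 and HOXC8. Its log2 fold change was -0.36 (SE 0.31, edgeR adjusted p = 0.783), and -0.18 without control 1.

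HOXC9 (ENSSSCG00000034474.1), often used as a marker of white fat, measured 6.57, 4.94 and 4.54 TPM in resveratrol and 5.27, 3.40 and 7.09 TPM in control. It had the highest level of the 10 genes in 5 of 6 libraries, and HOXB7 exceeded it in control 2. The group means were 5.35 ± 1.08 TPM in resveratrol and 5.26 ± 1.84 TPM in control (SD, n = 3 each), and the fold change interval was 0.628 to 1.70. HOXC5 (ENSSSCG00000040798.1) was the lowest of the 10 genes in all 6 libraries, at 0.482, 0.724 and 0.692 TPM in resveratrol and 0.744, 0.428 and 0.808 TPM in control. It rested on 5 to 21 reads per library, and the interval of its fold change was 0.444 to 2.07.

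**Figure D2:**
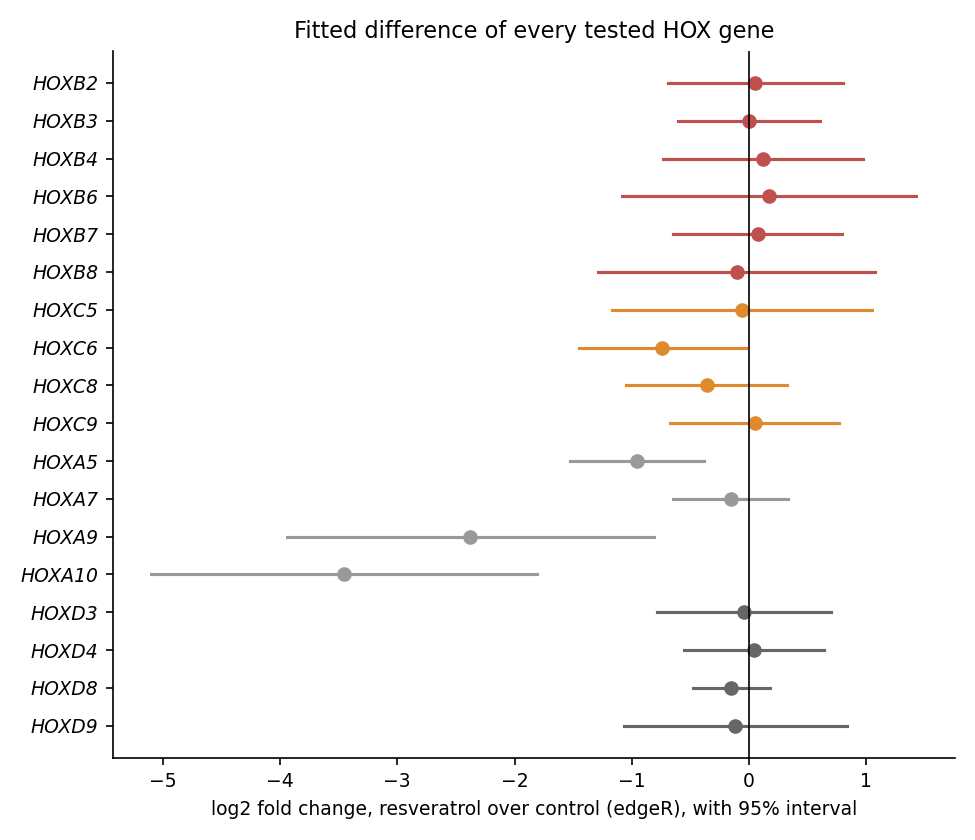
edgeR log2 fold change (x axis, resveratrol over control) of the 18 HOX genes tested, with the 95% interval as a line, for HOXB (red), HOXC (orange), HOXA (light grey) and HOXD (dark grey). HOXB points lie between -0.11 and 0.17, and among HOXC genes only the interval of HOXC6 ends below 0.

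Ordered by mean TPM over the 6 libraries, the genes ran HOXC9 (5.30), HOXB7 (4.09), HOXC8 (2.32), HOXB2 (2.28), HOXB3 (2.05), HOXC6 (2.03), HOXB6 (1.68), HOXB8 (1.41), HOXB4 (1.27) and HOXC5 (0.646). The ranges of neighbours in this order overlapped for every pair except HOXB4 and HOXC5. HOXB7 nevertheless exceeded HOXC8 in 6 of 6 libraries. HOXC9, the highest, lay at the 37.4th percentile of mean TPM among the tested genes and HOXC5 at the 2.96th, so the whole set sits in the lower part of expressed genes.

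The other genes of both clusters with a row were lower on average. Of the 8 other HOXB and HOXC genes with a row, none reached the minimum mean of 0.5 TPM that a gene needed to be tested. HOXC10, just posterior to HOXC9, measured at most 0.275 TPM in resveratrol and 0.769 TPM in control. HOXC11 had 1 read in all 6 libraries together, and HOXC12 and HOXB13 had 0 reads, which allows up to 3 reads per library. HOXB5 had 15 reads in total, while HOXB4 and HOXB6, on either side of it by number, had 272 and 266. At the anterior end, HOXB1 had 1 read and HOXC4 at most 0.475 TPM in resveratrol and 0.392 TPM in control. No row carried the symbol HOXB9, so it could not be analysed here. A row without a symbol could still hold it, as only 14750 of the 22844 rows had a symbol.

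**Figure D3:**
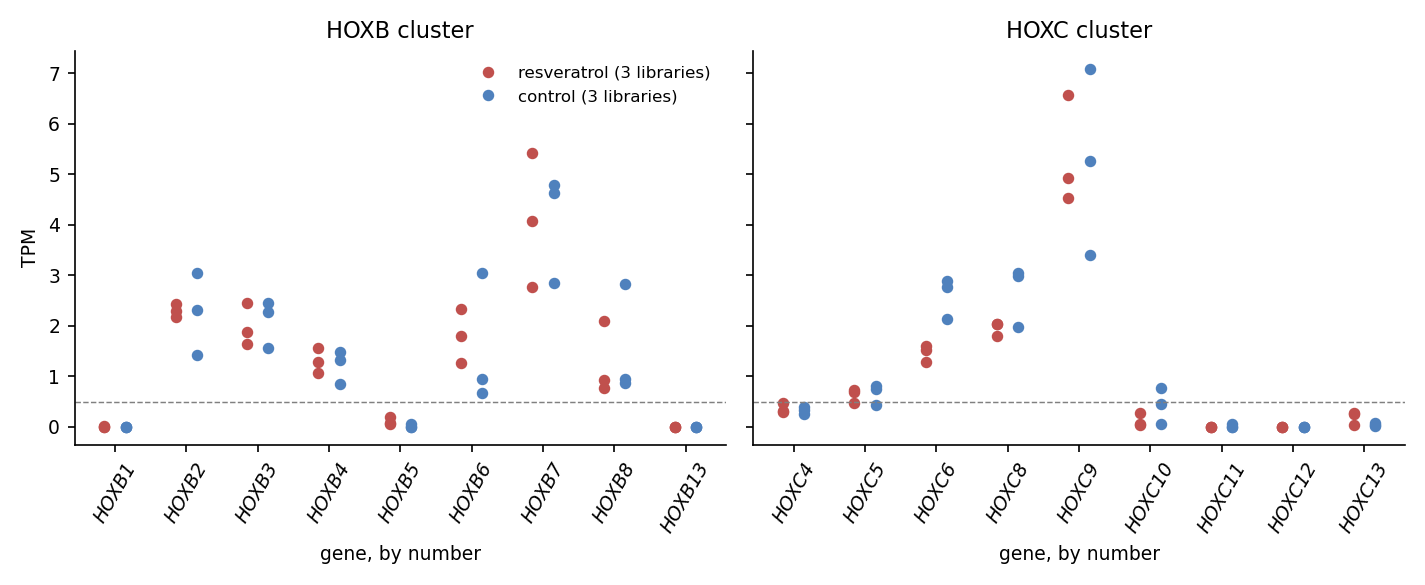
TPM (y axis) of every HOXB (left) and HOXC (right) gene with a row, ordered by number, in resveratrol (red) and control (blue), 1 point per library. The dashed line marks 0.5 TPM, the mean needed for testing. The mean HOXC level climbs from HOXC4 to HOXC9, though HOXC6 exceeds HOXC8 in control 3, and every HOXC10 to HOXC13 point is at most 0.769 TPM.

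Deviations from each gene's mean showed which libraries set these ranges. Control 2 held the lowest TMM-scaled value of 5 of the 10 genes, HOXB2, HOXB4, HOXB6, HOXC5 and HOXC9, where it held the lowest value of 27.8% of all tested genes. For these 5 it lay 0.69 to 1.27 below the gene's mean on the log2 CPM scale, while HOXB8 lay 0.92 above its mean there. Control 1 held the highest value of 4 of the 10 genes, where it held that of 18.5% of all tested genes. HOXC6 had all 3 resveratrol libraries below its mean and all 3 control libraries above it.

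**Figure D4:**
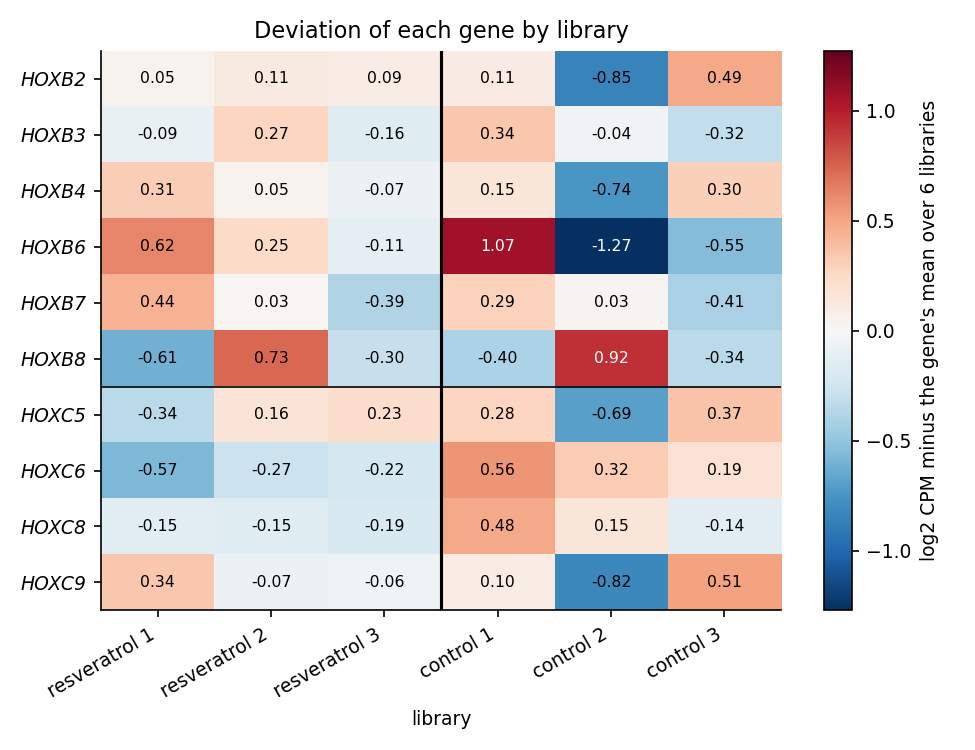
Log2 CPM of each gene minus its mean over the 6 libraries (colour and printed number), with genes down the page, HOXB above HOXC, and resveratrol libraries left of control libraries. The deepest deviations are HOXB6 in control 2 (-1.27) and in control 1 (1.07).

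In TPM the 6 HOXB genes summed to 14.3, 14.2 and 9.85 TPM in resveratrol 1, 2 and 3 and to 14.7, 12.9 and 10.9 TPM in control 1, 2 and 3, with replicate 3 lowest in each diet. The 4 HOXC genes summed to 10.4, 9.31 and 8.55 TPM in resveratrol and 11.8, 9.70 and 12.02 TPM in control, and these ranges also overlapped. The 10 genes together held 33.1% to 37.0% of the TPM of the 34 HOX genes with a row in resveratrol and 25.1% to 29.6% in control. This share depends on the HOXA genes in its denominator, which summed to 14.3, 18.1 and 10.7 TPM in resveratrol and 32.9, 23.4 and 36.5 TPM in control. Without HOXA rows the share was 47.1%, 44.4% and 41.2% in resveratrol and 46.9%, 40.2% and 41.9% in control, and the groups overlapped.

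**Figure D5:**
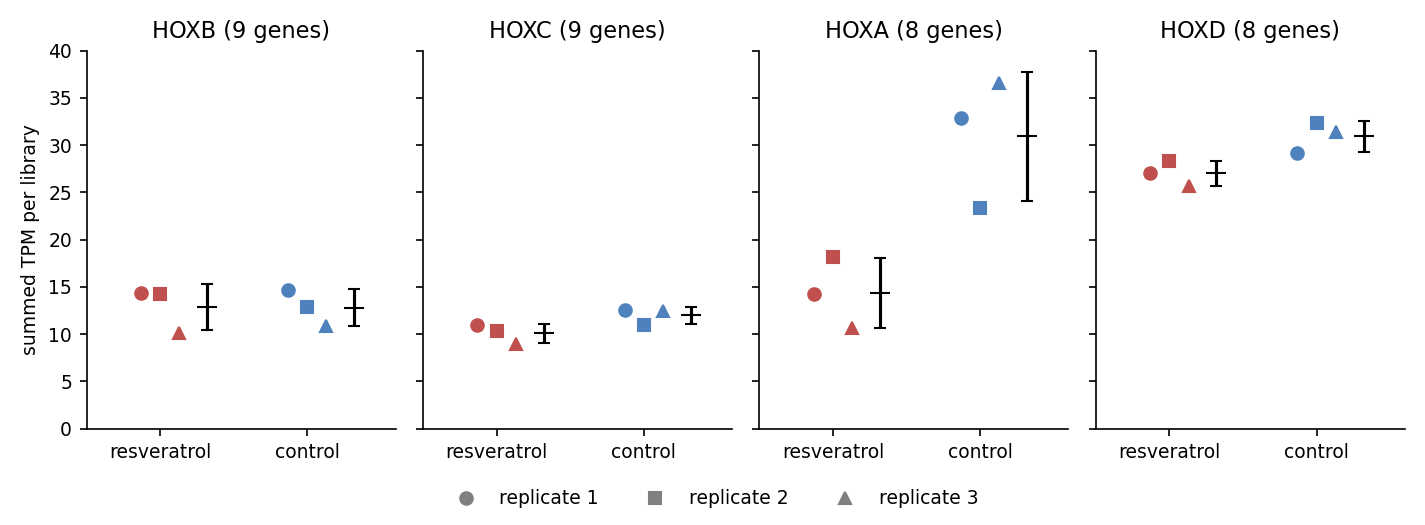
Summed TPM (y axis, from 0) of all genes with a row in the HOXB, HOXC, HOXA and HOXD clusters, with resveratrol libraries left of control libraries, symbols by replicate number and black bars for mean and SD. HOXB sums overlap between the diets, and HOXA sums show the widest gap.

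Of the 4 tested HOXA genes, 4 were below 0 and 3 had an unadjusted p under 0.05, all lower in resveratrol, where 51.2% of all tested genes were below 0 and 4.32% were lower at that threshold. In edgeR 0 passed the adjusted threshold and in DESeq2 2 passed, where 0.268% of all tested genes did. Without control 1 again 3 of 4 had an unadjusted p under 0.05 in edgeR, lower in resveratrol, where 4.21% of all tested genes had. Of the 4 tested HOXD genes, 0 had an unadjusted p under 0.05 in edgeR, where 6.53% of all tested genes had. HOXD8, the most abundant HOX gene, averaged 19.4 ± 0.260 TPM in resveratrol and 22.9 ± 2.86 TPM in control.

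No tested partner of the HOX proteins differed between the diets at an unadjusted p under 0.05. Of 6 tested PBX, MEIS and PKNOX genes, 3 were below 0, where 51.2% of all tested genes were. At an unadjusted p under 0.05, edgeR and DESeq2 gave 0 of the 6, where they gave 6.53% and 7.38% of all tested genes. In so few genes a count of 0 is close to these shares. PBX2, the most abundant, averaged 18.1 ± 1.28 TPM in resveratrol and 18.0 ± 2.002 TPM in control (SD, n = 3 each), and MEIS2 11.8 ± 1.44 and 12.7 ± 1.18 TPM. The log2 fold changes of PBX3 and PKNOX1 were 0.11 (SE 0.20) and -0.14 (SE 0.18). The least abundant tested partner, PKNOX2, averaging 1.37 TPM over the 6 libraries, had the largest, 0.43 (SE 0.29), and MEIS1 had one of -0.13 (SE 0.23).

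Polycomb genes, which keep unused HOX genes silent, gave a median log2 fold change of -0.15 over 21 tested genes. Of these, 14 were below 0, where 51.2% of all tested genes were. At an unadjusted p under 0.05, edgeR and DESeq2 gave 0 of the 21, where they gave 6.53% and 7.38% of all tested genes. EZH1, a histone methyltransferase, averaged 22.3 ± 2.42 TPM in resveratrol and 21.3 ± 3.96 TPM in control, and RING1, a ubiquitin ligase subunit, 18.7 ± 3.46 and 17.8 ± 1.54 TPM. PCGF3 and RNF2, of the same ligase complexes, had log2 fold changes of -0.26 and -0.11. Another 12 tested genes favour the active state, namely trithorax genes, histone demethylases and DOT1L, a histone methyltransferase gene. In edgeR 5 of the 12 had an unadjusted p under 0.05 and were lower in resveratrol, where 4.32% of all tested genes were. The adjusted threshold was passed by 0 in edgeR or in DESeq2. These 5, named because of their values, were ASH2L, DOT1L, KDM6B, KMT2A and KMT2B. The median of the 12 was -0.32, and without control 1 it was -0.37. In that edgeR fit 4 had an unadjusted p under 0.05, lower in resveratrol, where 4.21% of all tested genes had. The 4 most abundant, DPY30, WDR5, ASH1L and RBBP5, had log2 fold changes of 0.06, 0.08, -0.23 and 0.08.

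Genes acting upstream of HOX genes, in the retinoic acid pathway and its like, had a median of -0.29 over 9 tested genes, with 1 lower and 1 higher at an unadjusted p under 0.05, where 4.32% of all tested genes were lower and 2.21% higher, and 0 past the adjusted threshold in edgeR. Without control 1 the median was -0.016 and 0 of 9 had an unadjusted p under 0.05 in edgeR. In that fit 4.21% of all tested genes were lower and 2.9% higher at that threshold. ALDH1A1, which makes retinoic acid, averaged 97.8 ± 24.7 TPM in resveratrol and 94.1 ± 25.9 TPM in control, and ALDH1A3, an enzyme of the same step, 13.1 ± 2.96 and 15.7 ± 5.20 TPM. The retinoic acid receptors RARG and RARA had log2 fold changes of -0.40 and -0.29. Among 18 tested transcription factors that mark other body positions, 15 were below 0, and 1, PRRX1, had an unadjusted p under 0.05 in edgeR, where 51.2% and 6.53% of all tested genes did, and 0 passed. Without control 1 the sign of their median turned, with 8 of 18 below 0 and a median of 0.04, against -0.10 with it. SHOX2, a homeobox gene of limb and fat precursors, averaged 19.8 ± 2.60 TPM in resveratrol and 21.8 ± 2.18 TPM in control. NR2F1 had a log2 fold change of -0.11, and PRRX1, a gene of mesenchymal precursors, one of -0.56 (SE 0.25), or -0.29 (SE 0.25) without control 1.

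Of 10673 other genes with a symbol and a mean of at least 1 TPM, those nearest to the median HOXB profile over the 6 libraries were LRRC45, SRPX, GGT7, SCAMP4 and TMEM102. Their root-mean-square difference from it ran from 0.0646 to 0.0849 on the log2 CPM scale. Nearest to the HOXC profile were PLEKHG5, ZNF8, NPEPL1, PALM and C1QTNF1, at 0.0629 to 0.0802. Over so few libraries this is a description of shape only. The HOXC profile, a median of 4 genes, was highest in control 1, at 0.38 above its mean, and lowest in control 2, at 0.27 below. The genes did not share this low. In control 2 HOXC6 and HOXC8 deviated by 0.32 and 0.15 from their means, and HOXC5 and HOXC9 by -0.69 and -0.82. Nor did the HOXB genes follow their own median profile, which was at -0.39 in control 2. There HOXB2, HOXB4 and HOXB6 deviated by -0.85, -0.74 and -1.27, and HOXB3, HOXB7 and HOXB8 by -0.04, 0.03 and 0.92. C1QTNF1 measured 46.2, 57.2 and 50.5 TPM in resveratrol and 82.0, 58.5 and 71.3 TPM in control.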

How the data were processed

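Total RNA of subcutaneous fat was sequenced in 6 libraries, 3 per diet, and groups and replicate numbers come from the sample titles. The authors deposited a raw read count and a TPM value for each of 22844 rows per library, per the file headers. The series-wide table they deposited repeats the TPM of 14777 rows. The submitters' processing notes name Bowtie, version 0.12.2, beside 2 mouse builds, mm8 and mm9, while the rows carry pig identifiers. Which pig build and annotation were used, how reads were counted and whether strand was respected was not found in the labels or headers, so no coordinates are printed. A symbol was found for 14750 rows.

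A row was tested when its TPM averaged 0.5 or more (14908 rows, with all 10 described genes). TMM-scaled counts went into the robust quasi-likelihood F test of edgeR 4.0.16 in R 4.3.3, p-values were adjusted by the Benjamini-Hochberg method across the 14908 rows, and the threshold was 0.05. The biological coefficient of variation was 0.235. SE is the size of the log2 fold change divided by the square root of F, and 95% intervals use the t distribution. The fit was tested on simulated data. Alternatives were DESeq2 1.42.0, limma 3.58.1 on log2 TPM with pseudocounts of 0.5, 1 and 0.1, other scalings and filters, a replicate block and the removal of single libraries. The members and lists were chosen with earlier results of these data known. Named besides the members were up to 4 genes per list by mean TPM and the 5 nearest to each cluster's profile. HOXA, HOXD and marker genes are given mostly as sums and counts, and 1 further gene that this rule names is not reported here. Of the cell type lists, those of adipocytes, stromal progenitors, muscle, skin, and tendon and cartilage are given in the results and the other 5 in the closing observations.

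Reads per TPM of the 10 genes were in nearly 1 ratio between libraries (in control 2, 0.402 to 0.406 of that in resveratrol 1). The ranges were wider in resveratrol 3 (0.964 to 0.999) and control 3 (0.82 to 0.852), with HOXB8 lowest in each. TPM and counts of a gene thus differ mainly by library scaling. TPM was not scaled by TMM.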

Additional observations from a re-analysis of the deposited data

How the results depend on the processing

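Across 15 alternatives, 0 of the 10 genes passed the adjusted threshold (HOXC5 had no value with a mean of at least 1 TPM, which it did not reach). The read counts behind the 10 genes ran from 5 to 244 per library. Over all tested genes 40 passed in DESeq2, and 0 to 5 with a library left out, the 5 without control 2. An unadjusted p under 0.05 was met by 403 (without resveratrol 3) to 1681 genes (without control 3) with a library left out, and by 0 to 1 of the 10 genes. That 1 was HOXC6 without control 2 and HOXB6 without control 1. The count was 0 with no filter beyond 1 read, with library totals alone and with the replicate block. HOXC6 had an unadjusted p under 0.05 in 7 of the 15 alternatives, among them DESeq2 and every limma fit. Deviations of same-numbered libraries correlated at 0.157, 0.074 and 0.2, each the best match of its library as a hint from the data, but the samples share only a number, and the replicate block gave 1259 genes at an unadjusted p under 0.05, against 973. With it the HOXB median was 0.10 and the HOXC median -0.19. With a library left out the HOXB median ran from -0.10 to 0.21 and the HOXC median from -0.35 to -0.06. By reads instead of TPM, 3 of 10 genes kept their place in the order. HOXC6 and HOXC8 stayed below 0 in all 15 alternatives. The other log2 fold changes, all near 0, changed sign in at least 1, and the cause was not tested. HOXB3 was -0.0019 in DESeq2, -0.0017 with DESeq2 size factors, -0.0080 with a mean of at least 1 TPM and -0.069, -0.059 and -0.050 in limma with pseudocounts of 0.1, 0.5 and 1. HOXB7 was -0.016, -0.013 and -0.011 in the same limma fits, and HOXC5 was 0.031 with library totals alone. With a library left out, HOXB2 ran from -0.23 (without control 2) to 0.36, HOXB3 from -0.15 (without control 3 or resveratrol 2) to 0.20, HOXB4 from -0.13 (without control 2) to 0.32 and HOXB6 from -0.19 (without control 2) to 1.19 (without control 1). HOXB7 ran from -0.16 (without resveratrol 1) to 0.27, HOXB8 from -0.65 to 0.47 (without control 2), HOXC5 from -0.32 to 0.13 (without control 3) and HOXC9 from -0.23 (without control 2) to 0.37.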

Other observations

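A pair of retinoic acid enzymes, chosen after their values were seen, lay on opposite sides of 0. CYP26B1, which breaks retinoic acid down, averaged 1.73 ± 0.823 TPM in resveratrol and 4.27 ± 2.21 TPM in control (SD, n = 3 each). ALDH1A2, which makes it, averaged 6.41 ± 1.56 TPM in resveratrol and 4.01 ± 1.43 TPM in control. Neither passed in edgeR (adjusted p = 0.733 for each). The log2 fold change of CYP26B1 was -1.25 (SE 0.43), and -0.67 (SE 0.36) without control 1, its highest library. That of ALDH1A2 was 0.77 (SE 0.28), and 0.53 (SE 0.26) without control 1, its lowest library.

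Markers of other cell types differed between libraries, and their part in the HOX values was not tested. The 6 macrophage markers summed to 257 to 352 TPM in resveratrol and 203 to 225 TPM in control, 6 of 6 had a log2 fold change above 0, and 3 had an unadjusted p under 0.05 in edgeR, higher in resveratrol, where 2.21% of all tested genes had. The endothelial markers summed to 189 to 207 TPM in resveratrol and 193 to 259 TPM in control, and those of smooth muscle and pericytes to 267 to 808 TPM in resveratrol and 426 to 641 TPM in control. Schwann cell markers summed to 18.9 to 45.6 TPM in resveratrol and 18.6 to 23.7 TPM in control, and lymphocyte markers to 15.1 to 31.2 TPM in resveratrol and 15.8 to 19.1 TPM in control.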
